A study of Homo sapiens with 3 samples.

Results

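The transcripts described here are those encoded by the mitochondrial genome, taken as every row of the expression table whose gene name starts with MT-. There are 37 such rows of 58039 listed genes, namely 13 mRNAs, 2 rRNAs and 22 tRNAs. RNA was measured in T47D cells, an established human breast cancer line of luminal type, in 3 libraries. The control library came from cells labelled with a control hairpin, and the shRNA1 and shRNA2 libraries came from cells in which ERINA, a long noncoding RNA, was knocked down by 1 of 2 short hairpin RNAs (shRNAs). All lines were made by lentiviral infection and puromycin selection according to the labels, although the control's own shRNA field reads None. There is 1 control library and 2 knockdown libraries, and nothing in the labels says that any condition was cultured again, so p-values measure only the spread between the 2 shRNA libraries.

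Human mitochondria carry a small circular genome that is transcribed from both strands into long precursor RNAs. These are cut mostly at the tRNAs, which lie between the other genes, and the rRNAs and most, but not all, of the released mRNAs receive short poly(A) tails. The mRNAs encode core subunits of respiratory complexes I, III, IV and V, the rRNAs build the mitochondrial ribosome, and the tRNAs read the mitochondrial codons. The level of such a transcript depends on the number of genome copies, on transcription and on the stability of each cut product, which one level per library cannot separate. In bulk RNA, fewer mitochondrial genomes and less RNA from each genome cannot be told apart.

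All 37 rows matched GENCODE release 29 on GRCh38 by gene identifier, and all 37 annotated positions lay inside the deposited locus. On the plus strand are both rRNAs, 12 mRNAs and 14 tRNAs, and on the minus strand MT-ND6 and 8 tRNAs. Of all these rows 28 stand alone in their locus, while 9 share 4 loci with a neighbour. These are MT-ATP8, MT-ATP6 and MT-CO3, then MT-ND4L and MT-ND4, and the tRNA pairs MT-TI with MT-TQ and MT-TC with MT-TY. The 3 junctions between mRNAs are shown because reads from them can belong to either gene, with the shared bases in capitals, as GENCODE release 29 gives the plus strand of GRCh38 at chrM:8515-8584, chrM:10748-10778 and chrM:9195-9219.
MT-ATP8/MT-ATP6: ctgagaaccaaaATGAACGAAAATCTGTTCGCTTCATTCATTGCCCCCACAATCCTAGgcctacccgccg
MT-ND4L/MT-ND4: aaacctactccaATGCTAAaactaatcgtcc
MT-ATP6/MT-CO3: cgacaacacataAtgacccaccaat

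The first overlap spans 46 bases, or 22.2% of MT-ATP8, the second 7 bases and the third 1 base. The tRNAs are the shortest members at 59 to 75 nt, against 207 nt for the shortest mRNA. Shown next are MT-TS2, the shortest tRNA (chrM:12207-12265, plus strand), and the pair MT-TI (chrM:4263-4331, plus strand) and MT-TQ (chrM:4329-4400, minus strand), whose last 3 bases, in capitals, lie opposite each other.
MT-TS2: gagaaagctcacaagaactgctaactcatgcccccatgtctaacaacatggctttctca
MT-TI: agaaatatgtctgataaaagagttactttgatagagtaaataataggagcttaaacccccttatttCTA
MT-TQ: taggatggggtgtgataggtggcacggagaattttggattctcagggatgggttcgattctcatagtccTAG

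The levels are FPKM, the fragments of a transcript scaled to its length and to the library's mapped fragments, so levels of different genes can be compared per length. Each comes with a lower and an upper bound deposited by the authors, whose confidence level is not given in the sources used here. The total FPKM over all genes was 790290 in the control library, 860240 with shRNA1 and 808451 with shRNA2, and 13112 genes with a mean of at least 1 FPKM were tested. LINC00992, the name under which ERINA is listed, stood at 63.4 FPKM in the control library, 5.21 with shRNA1 and 8.91 with shRNA2. Of the luminal epithelial markers checked, EPCAM was at 154 to 160 FPKM, KRT8 at 2221 to 2800, KRT18 at 1770 to 2001, KRT19 at 3152 to 5210, FOXA1 at 65.7 to 94.8 and GATA3 at 39.0 to 43.4. PTPRC, PECAM1 and COL1A2, markers of blood, endothelial and stromal cells, were all below 0.03 FPKM. VIM, a mesenchymal marker, was at 1.47, 2.06 and 2.70 FPKM, higher with both shRNAs, and its part in the results was not tested. The hormone receptor genes ESR1 and PGR were at 16.5 to 17.96 and 41.4 to 55.4 FPKM.

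Mitochondrial transcripts took a small share of the total FPKM, 0.373% in the control library, 0.429% with shRNA1 and 0.424% with shRNA2. The mRNAs made up 0.352%, 0.399% and 0.398%, the rRNAs 0.0215%, 0.0296% and 0.0264%, and the tRNAs 0% of the total. The share of all MT- rows was thus 1.15 and 1.14 times the control's in the shRNA libraries, which differ from each other by less than either does from the control. With 1 control against 2 knockdown libraries no exact test can pass the threshold of 0.05, so no p-value is given. At full annotated length these levels correspond to 0.250%, 0.312% and 0.289% of all fragments, before any length correction, which is not given in the sources used here.

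Levels among the mRNAs and rRNAs ranged widely although most come from the same plus-strand precursor. The library kit is not given in the sources used here, so how evenly it captured these rRNAs and mRNAs is not known. MT-CO3, subunit 3 of cytochrome c oxidase (complex IV), was highest at 898 FPKM in the control library, 1143 with shRNA1 and 1074 with shRNA2. MT-ND3, a small subunit of NADH dehydrogenase (complex I), followed at 693, 898 and 827 FPKM. MT-CO1, the catalytic subunit of complex IV, stood at 528, 649 and 601 FPKM, and MT-CO2, which takes electrons from cytochrome c, at 326, 436 and 408 FPKM. These 4 mRNAs held 88.0%, 91.0% and 90.5% of the summed mRNA FPKM. Among all listed genes MT-CO3 ranked 89th in the control, and 83rd and 84th with shRNA1 and shRNA2.

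The other 9 mRNAs lay far below these. MT-ND4L and MT-ND4, overlapping complex I genes, were at 117 and 59.5 FPKM in the control, and MT-ATP6, a proton channel subunit of ATP synthase (complex V), at 63.8 FPKM. MT-CYB, the only complex III subunit encoded here, was at 47.7 FPKM and MT-ND5, of complex I, at 20.1 FPKM. MT-ATP8, a small subunit of complex V, was at 9.33 FPKM, and MT-ND2 and MT-ND1, of complex I, at 8.45 and 8.24 FPKM. MT-ND6, the complex I subunit on the minus strand, was lowest at 0.910 FPKM, 987-fold below MT-CO3. The 7 complex I mRNAs spanned most of this range, as they included both the second highest mRNA and the lowest. All complex IV mRNAs, in contrast, lay above these 9 mRNAs.

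The order of the 15 rRNAs and mRNAs was the same in each library except that MT-RNR1 and MT-CYB changed places with shRNA1. Of the 14 neighbour pairs in the control order, 2 had deposited bounds that did not overlap in any of the 3 libraries. These were MT-CO2 above MT-RNR2 and MT-ND1 above MT-ND6. Another pair, MT-RNR1 and MT-ND5, had separate bounds only with shRNA1. All other neighbours in the order, such as MT-CO3 and MT-ND3 or MT-ND2 and MT-ND1, had overlapping bounds in all 3 libraries.

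**Figure D1:**
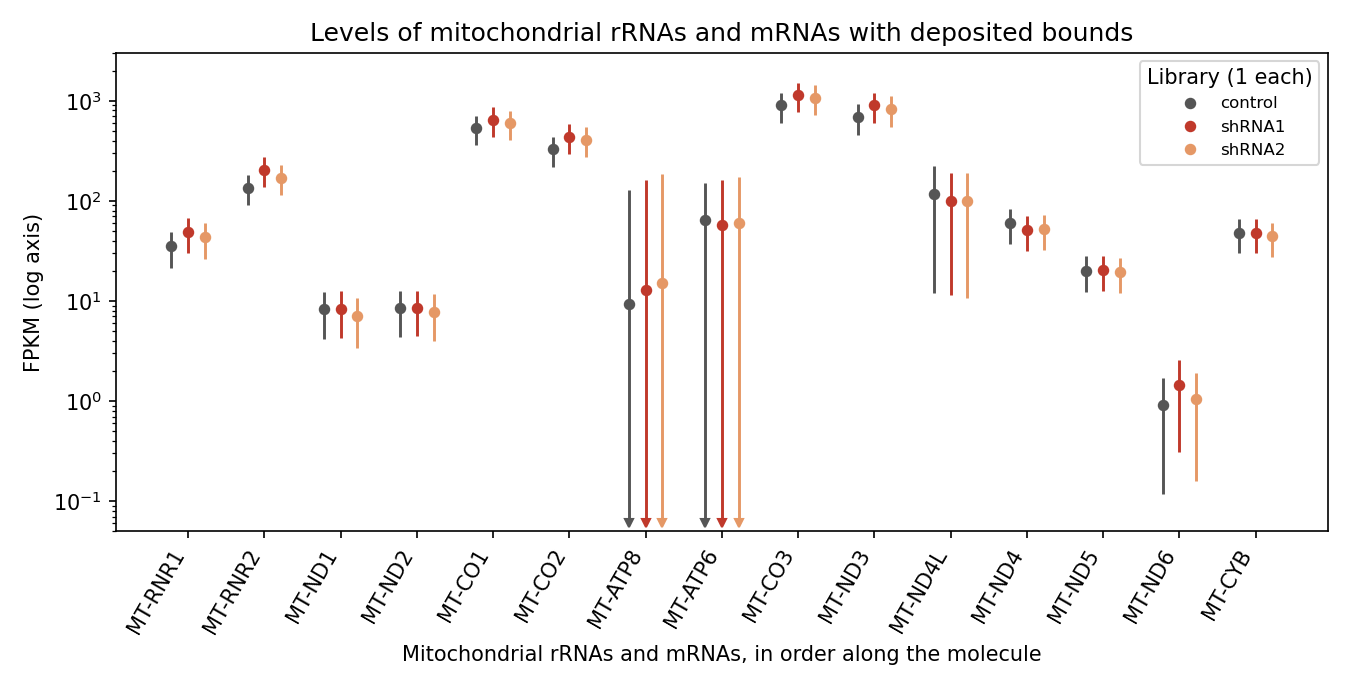
Levels of the 2 mitochondrial rRNAs and 13 mRNAs in FPKM (log axis), in order along the molecule. Points are the single control, shRNA1 and shRNA2 libraries, lines are the deposited bounds, and triangles mark a lower bound of 0, which only MT-ATP8 and MT-ATP6 have. MT-CO1, MT-CO2, MT-CO3 and MT-ND3 stand above all others, and the bounds of each gene overlap between libraries.

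The 4 abundant mRNAs were 346 to 1542 nt long, and what sets them apart was not tested. All 4 lie in the same stretch, chrM:5904-10404, with only MT-ATP8 and MT-ATP6 of the other mRNAs among them. Across the 13 mRNAs, which are not independent and share each library, the log2 control level had a Spearman rho of -0.04 with length, 0.20 with GC content and -0.03 with position. The rho with position measures only a steady trend and cannot show such a stretch. The mRNAs also differ in how they end, since 6 of the 13 have a length that is no multiple of 3 and rely on the poly(A) tail to complete the stop codon. Whether the ends go with the levels was not tested. The last 18 bases of the 4 abundant mRNAs are shown, with the last codon, or what is encoded of it, in capitals. MT-CO3 and MT-ND3 both end in a lone encoded T, while MT-CO1 and MT-CO2 end in a full codon. All are on the plus strand, at chrM:9973-9990, chrM:10387-10404, chrM:7428-7445 and chrM:8252-8269 in that order.
MT-CO3: tctattgatgagggtctT
MT-ND3: gattagactgaaccgaaT
MT-CO1: gtatacataaaatctAGA
MT-CO2: cccgtatttaccctaTAG

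The nuclear genome holds copies of mitochondrial genes, so reads could match more than 1 place. In windows of 50 bases compared with all other GENCODE transcripts on both strands, MT-CO1 shared 49.5%, MT-ATP6 46.7% and MT-ND2 43.6% of windows exactly with nuclear transcripts. MT-CO3 shared 30.6%, MT-CO2 28.98% and MT-ND1 22.1%, against 0% for MT-ND3, MT-ND4L and MT-RNR1. Nuclear copies outside the annotated transcripts, and matches that are not exact, were not searched. The shared part had a Spearman rho of 0.02 with the log2 control level over the 13 mRNAs, and the abundant group held both MT-CO1, with the highest shared part, and MT-ND3, with none. Levels of the genes with a large shared part remain uncertain, because how the authors divided such reads is not given in the sources used here.

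The copies themselves were hardly seen. Of 386 nuclear copies listed by name, 367 were at 0 in all 3 libraries, and their summed FPKM was 4.77 in the control library, 6.09 with shRNA1 and 4.72 with shRNA2. The highest was MTATP6P1, a copy of MT-ATP6 on chromosome 1, at 2.85, 2.93 and 3.35 FPKM, with lower bounds of 0. It was the only copy with a mean of at least 1 FPKM. MTCO2P2 was at 0.532, 1.45 and 0 FPKM, MTCO3P12 at 0.389, 0.301 and 0.451 FPKM, and MTCO1P12 at 0.293, 0.389 and 0.383 FPKM.

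All 22 tRNAs were listed at 0 FPKM in all 3 libraries, with the status OK and both bounds at 0. The transfer RNAs are made from the same precursors as the mRNAs beside them, yet no tRNA row held any signal, from MT-TF at one end of the gene order to MT-TP at the other. Rows of like length elsewhere in the table looked the same. Of 940 nuclear genes with 1 annotated transcript of 59 to 75 nt, 936 (99.6%) were at 0 in all 3 libraries, among them 496 microRNA, 171 small nucleolar RNA and 174 small nuclear RNA genes. The other 4 were processed pseudogenes, the highest of them AC090498.1 at 5.15, 5.19 and 4.39 FPKM in the 3 libraries.

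The share at 0 was lower in longer genes, at 1492 of 1507 in the bin from 76 nt, 95.2% in the bin from 100 nt and 79.8% in the bin from 300 nt. The zeros of the tRNAs are listed values, and no difference in tRNAs between control and knockdown could be assessed. A bound of 0 on these rows gives no upper limit on the level, since the number of fragments behind them is not given.

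**Figure D2:**
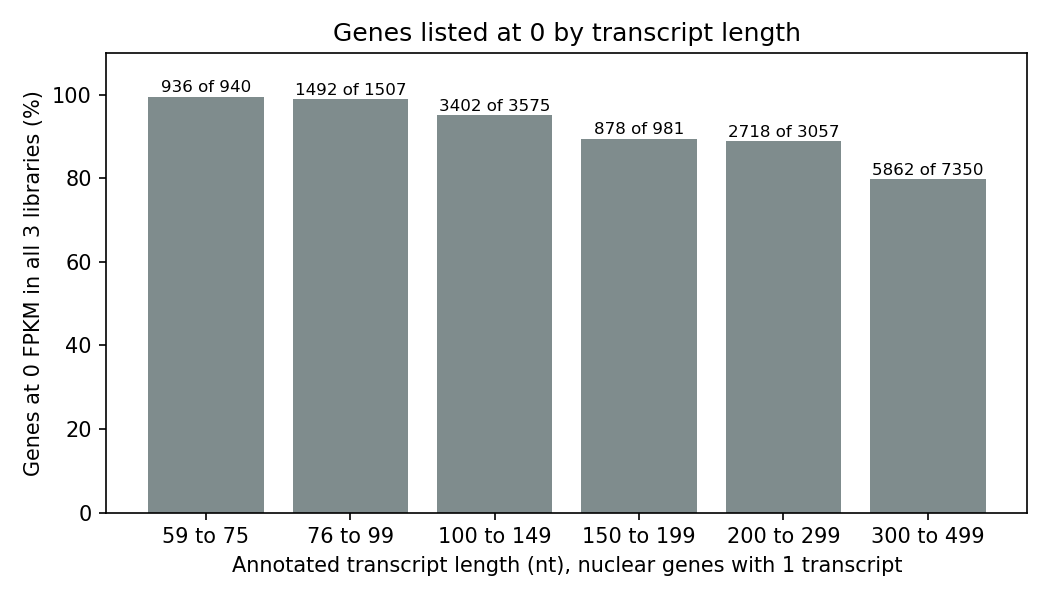
Percentage of nuclear genes with 1 annotated transcript that are listed at 0 FPKM in all 3 libraries, by transcript length in nt. Numbers above the bars are genes at 0 of all genes in the bin. At the length of the mitochondrial tRNAs, 59 to 75 nt, 936 of 940 genes are at 0.

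Among the short mRNAs the status was the same while the bounds differed widely. All 37 rows had the status OK in all 3 libraries, but the half-width of the deposited bounds in the control was 685% of the FPKM for MT-ATP8, 118% for MT-ATP6 and 89.6% for MT-ND4L. Nuclear genes within 1.5-fold of the same level had median half-widths of 55.8%, 43.1% and 40.8%. MT-ATP8 at 9.33 FPKM had bounds of 0 to 128 in the control, 0 to 162 with shRNA1 and 0 to 184 with shRNA2. MT-ATP6, next to it and longer at 681 nt, had bounds of 0 to 151, 0 to 161 and 0 to 173 FPKM.

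Length alone did not go with the wide bounds. MT-ND3, at 346 nt against 297 nt for MT-ND4L, had a half-width of 34.2% of its FPKM, near the median of 35.4% for nuclear genes of its level. MT-CO3 touches MT-ATP6 by 1 base and shares its locus, and had a half-width of 33.2%. MT-ND4, which shares 7 bases and the locus with MT-ND4L, had 38.1%. MT-ND6 had 87.2%, at a level where nuclear genes had a median of 102.8%.

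**Figure D3:**
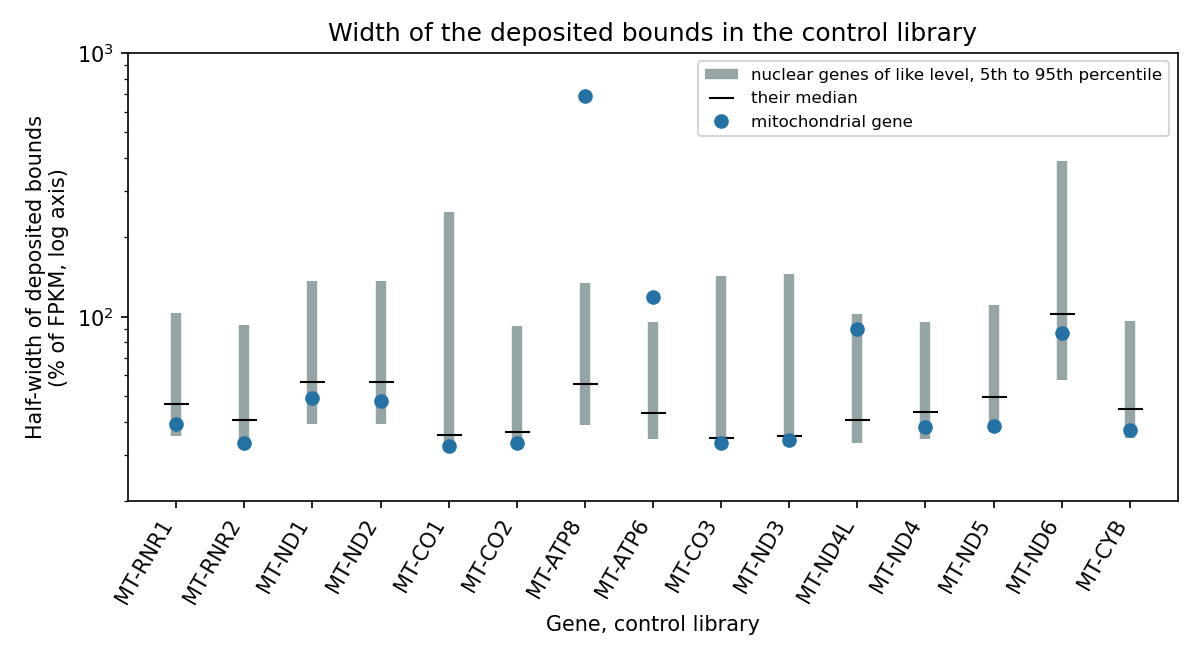
Half-width of the deposited bounds as a percentage of the FPKM in the control library (log axis), for each mitochondrial rRNA and mRNA (points). Grey bars span the 5th to 95th percentile and dashes the median of nuclear genes within 1.5-fold of the same level. MT-ATP8 and MT-ATP6 lie above the bars, at 685% and 118%.

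The comparison of knockdown with control asks whether any of these transcripts differ when ERINA is reduced. Of the 37 members 15, all mRNAs and rRNAs, reached a mean of 1 FPKM and were tested, and the 22 tRNAs were not. In limma over all 13112 genes, none of the 15 passed a Benjamini-Hochberg adjusted p of 0.05, where 0.0839% of all genes passed as higher, 0.267% as lower and 0.351% in either direction. LINC00992, the targeted gene, did not pass either, with a log2 difference of -3.12 (limma SE 0.33, Benjamini-Hochberg adjusted p of 0.0816). Not passing in this fit therefore does not show that a gene is unchanged. None passed with the robust option of eBayes, where 3.28% of all genes were higher and 4.54% lower. With protein-coding and MT- genes tested alone, where 7.12% of genes were higher and 11.2% lower, MT-CO2, MT-RNR2 and MT-ATP8 passed as higher. At an unadjusted limma p under 0.05 stood 6 higher members and 1 lower, against 13.7% and 15.9% of all genes. The members did not share a direction, as 8 lay above the control with both shRNAs (42.4% of all genes), 3 below with both (42.6%) and 4 on opposite sides (14.6%). Of the 8 above, 7 were higher with shRNA1 than with shRNA2 and only MT-ATP8 was higher with shRNA2. Of the 5558 tested genes above with both, 3673 were higher with shRNA1 (28% of all genes) and 1885 with shRNA2 (14.4%). With the libraries set to equal total FPKM the same 8 lay above (33.3% of all genes) and all 7 others below (49.7%), a scaling that put the median log2 difference of all genes at -0.12 with shRNA1 and -0.03 with shRNA2.

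Both rRNAs were higher in the shRNA libraries than in the control. MT-RNR1, the RNA of the small mitochondrial ribosomal subunit, was at 35.1 FPKM in the control library (bounds 21.3 to 48.9), 48.7 with shRNA1 (30.2 to 67.2) and 43.1 with shRNA2 (26.5 to 59.7). The log2 difference from the control was 0.38 (limma SE 0.11, Benjamini-Hochberg adjusted p of 0.133). MT-RNR2, the RNA of the large subunit, was at 135 FPKM in the control library (bounds 90.2 to 179.6), 206 with shRNA1 (139 to 272) and 170.2 with shRNA2 (114 to 226). Its log2 difference was 0.47 (limma SE 0.14, Benjamini-Hochberg adjusted p of 0.137). With each rRNA both shRNA values lay above the control value, the bounds of all libraries overlapped, and shRNA1 was further from the control than shRNA2. The pair kept nearly the same proportion, MT-RNR2 being 3.84, 4.22 and 3.95 times MT-RNR1 in control, shRNA1 and shRNA2.

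The 3 complex IV mRNAs and MT-ND3 were also higher. The levels of MT-CO3 given above were 1.27 and 1.20 times the control with shRNA1 and shRNA2, with bounds of 600.0 to 1197 FPKM in the control against 766 to 1519 and 720 to 1429. In limma its log2 difference was 0.30 (SE 0.10) and its Benjamini-Hochberg adjusted p 0.155. MT-ND3 was 1.30 and 1.19 times the control, with a limma log2 difference of 0.31 (SE 0.10, Benjamini-Hochberg adjusted p of 0.152). MT-CO2 was 1.34 and 1.251 times the control, with a limma log2 difference of 0.37 (SE 0.09, Benjamini-Hochberg adjusted p of 0.109). MT-CO1 was 1.23 and 1.14 times the control, with a limma log2 difference of 0.24 (SE 0.10, Benjamini-Hochberg adjusted p of 0.201).

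In these 4 genes the control was the lowest library and shRNA1 the highest, but the deposited bounds overlapped throughout. The 2 shRNA libraries stood closer to each other than to the control, shRNA2 being 0.92 to 0.94 times shRNA1. As a part of the total FPKM the summed complex IV mRNAs were at 0.222% in the control library, 0.259% with shRNA1 and 0.258% with shRNA2. On that scale MT-CO3 lay 0.22 above the control in log2 with each shRNA, MT-ND3 0.25 and 0.22, MT-CO2 0.30 and 0.29 and MT-CO1 0.17 and 0.15.

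Another 3 mRNAs lay below the control with both shRNAs. MT-ND4L was at 117 FPKM in the control library (bounds 12.1 to 221), 99.95 with shRNA1 and 99.5 with shRNA2, a log2 difference of -0.23 (limma SE 0.08, Benjamini-Hochberg adjusted p of 0.161). MT-ND4 was at 59.5, 51.2 and 52.6 FPKM, a log2 difference of -0.20 (limma SE 0.08, Benjamini-Hochberg adjusted p of 0.208). MT-ATP6 was at 63.8, 57.4 and 59.5 FPKM, a log2 difference of -0.13 (limma SE 0.08, Benjamini-Hochberg adjusted p of 0.365). Each is a gene of an overlapping pair, and in each the shRNA libraries were closer to each other than to the control.

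MT-ATP8, the partner of MT-ATP6, lay above the control with both shRNAs at 9.33, 12.8 and 15.3 FPKM in the 3 libraries, the control first. Its log2 difference of 0.56 (limma SE 0.15, Benjamini-Hochberg adjusted p of 0.116) was the highest of the 15, and its bounds were also the widest. The FPKM of both genes summed to 73.1, 70.3 and 74.7, a sum that depends on how reads in the shared 46 bases were divided, since each gene has its own length. Converted to fragments at full annotated length, the pair took 0.00454%, 0.00418% and 0.00436% of all fragments. The sum with shRNA2 thus lay above the control as FPKM and below it as fragments, and that with shRNA1 lay below it on both scales.

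The remaining mRNAs were close to the control or poorly measured. MT-CYB was at 47.7, 47.9 and 44.2 FPKM, MT-ND5 at 20.1, 20.5 and 19.5, MT-ND2 at 8.45, 8.53 and 7.81 and MT-ND1 at 8.24, 8.39 and 7.01, each on opposite sides of the control with the 2 shRNAs. Their log2 differences ran from -0.10 for MT-ND1 to -0.0039 for MT-ND5, with Benjamini-Hochberg adjusted p in limma of 0.699 to 0.981. MT-ND6 was at 0.910, 1.44 and 1.04 FPKM, with bounds of 0.117 to 1.704 in the control and a log2 difference of 0.29 (limma SE 0.25, Benjamini-Hochberg adjusted p of 0.470).

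**Figure D4:**
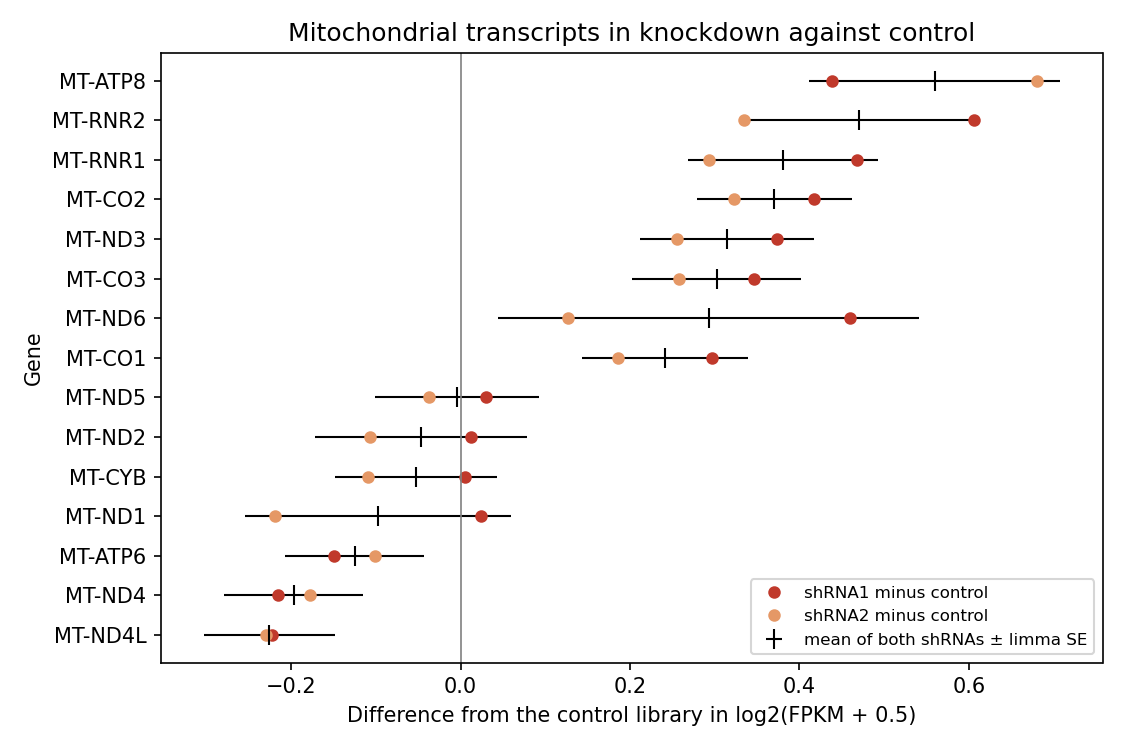
Difference of each mitochondrial rRNA and mRNA from the control library in log2(FPKM + 0.5), with shRNA1 and shRNA2 as points and the mean of both with the limma standard error as a black line. The difference runs from -0.23 for MT-ND4L to 0.56 for MT-ATP8, and none passed limma over all genes.

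No gene's deposited bounds were clear of the control with both shRNAs, and none with either one (0 of 15). Over all tested genes 0.0839% had the bounds of both shRNAs above the control's and 0.221% below, 0.305% in all. The median log2 difference was -0.0039 over the 13 mRNAs and 0.43 over the 2 rRNAs, beside 0.0005 over all tested genes. With shRNA1 alone the highest rRNA difference was 0.61, in MT-RNR2, and with shRNA2 alone 0.33, also in MT-RNR2.

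Ratios within a library do not depend on how the libraries were scaled, and are given here as a description. Most pairs set a member already seen above the control over one seen flat or below it, so the direction of these ratios follows from that choice. MT-CO3 was 18.8 times MT-CYB in the control, 23.9 times with shRNA1 and 24.3 times with shRNA2. MT-CO1 was 62.5, 76.1 and 77.0 times MT-ND2, and 64.1, 77.4 and 85.7 times MT-ND1. MT-ND3 was 11.6, 17.5 and 15.7 times MT-ND4, 2 genes with only MT-TR and MT-ND4L between them. MT-RNR2 was 16.4, 24.5 and 24.3 times MT-ND1, a complex I gene next downstream among the mRNAs.

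Ratios within the abundant group moved less than those above. MT-CO3 was 1.30, 1.27 and 1.30 times MT-ND3. MT-CO2 was 0.618, 0.672 and 0.679 times MT-CO1, which is 1.09 and 1.10 times the control ratio with shRNA1 and shRNA2. MT-ATP8 over MT-ATP6, a pair that overlaps, was 0.146, 0.223 and 0.257. With MT-ND6 on the minus strand the shRNA libraries lay on either side of the control, MT-CO3 being 987, 794 and 1033 times MT-ND6. With 1 control library no spread of these ratios between control cultures is known.

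**Figure D5:**
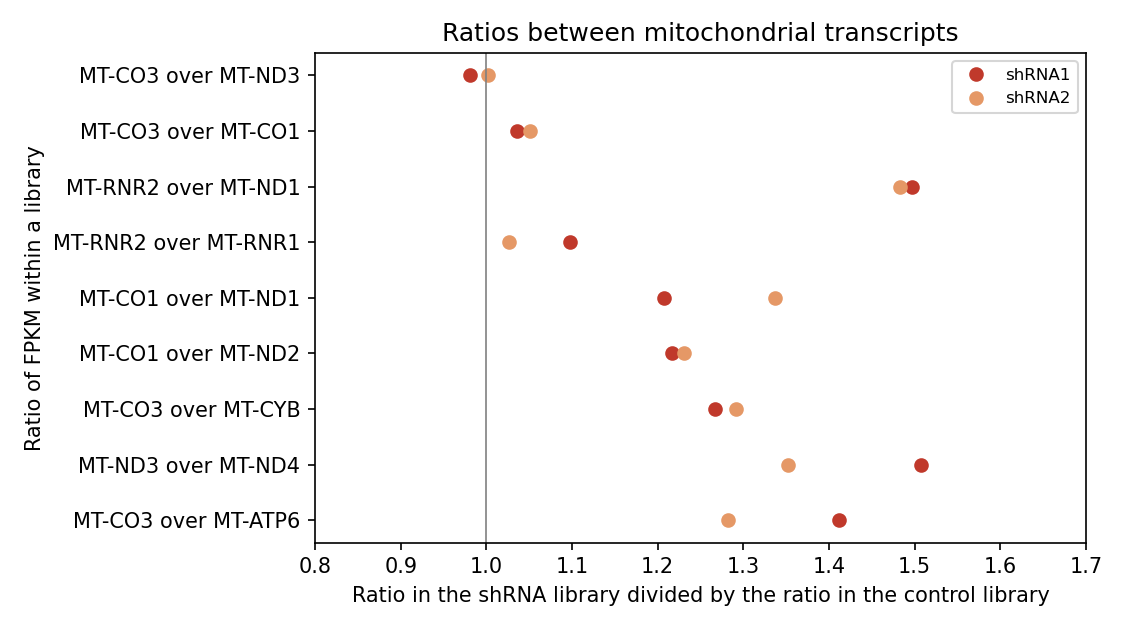
Ratios of FPKM between pairs of mitochondrial transcripts, each ratio in an shRNA library divided by the same ratio in the control library, so that 1 means no difference. The plotted pairs inside the abundant group, such as MT-CO3 over MT-ND3 at 0.98 and 1.00, lie near 1, and MT-CO2 over MT-CO1 is not plotted. The plotted pairs of a higher over a flat or lower member, such as MT-RNR2 over MT-ND1 at 1.497 and 1.48, lie above 1.

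Nuclear genes that make and process mitochondrial RNA were read from the same fit, in 8 lists by role. Over the lists 119 genes were tested and 0 passed limma (Benjamini-Hochberg), with 14 higher and 12 lower at an unadjusted p under 0.05, where 13.7% of all tested genes were higher and 15.9% lower. The targeted LINC00992 did not pass in this fit either. Of the 119, 55 were above the control with both shRNAs, 46 below with both and 18 on opposite sides, and the median log2 difference was 0.03. Of all tested genes 42.4% were above with both, 42.6% below with both and 14.6% on opposite sides.

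Among the 10 transcription factors 5 were above and 5 below with both shRNAs. POLRMT, the mitochondrial RNA polymerase, was at 8.09, 7.28 and 5.43 FPKM in the control, shRNA1 and shRNA2 libraries. TFAM, which packages the genome and opens its promoters, was at 54.6, 46.9 and 52.0 FPKM, and the initiation factor TFB2M at 11.8, 12.8 and 12.8 FPKM. Higher values were listed for MTERF2, of the termination factor family (5.38, 9.86 and 10.05 FPKM), MTERF4, of the same family (8.68, 12.2 and 11.3), and C6orf203, also called MTRES1 (8.59, 12.02 and 11.2). MTERF2 overlaps TMEM263 and had the largest difference of the list, 0.83 (limma SE 0.11, Benjamini-Hochberg adjusted p of 0.0829).

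In RNA processing and decay 10 of 22 genes were above and 6 below with both shRNAs. KIAA0391, the nuclease subunit of mitochondrial RNase P that cuts the 5' ends of the tRNAs, was at 52.0, 33.7 and 35.7 FPKM, but the gene overlaps PPP2R3C and others. Its partner TRMT10C was at 47.0, 44.0 and 47.9 FPKM, and ELAC2, which cuts the tRNA 3' ends, at 37.8, 36.3 and 31.9. LRPPRC, which stabilises mitochondrial mRNAs, was at 78.2, 74.7 and 79.6 FPKM and its partner SLIRP at 309, 382 and 363.

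Of the FASTK family, which acts on individual mitochondrial RNAs, TBRG4 was at 64.9, 48.5 and 51.0 FPKM and FASTKD5 at 9.74, 7.30 and 7.75. FASTKD1 was at 2.39, 2.68 and 2.94 FPKM, FASTKD2 at 18.7, 17.6 and 18.7, and FASTKD3 at 9.74, 10.4 and 11.6. ANGEL2, a deadenylase-like protein, was at 14.8, 21.5 and 21.0 FPKM. None of these passed in limma, with a Benjamini-Hochberg adjusted p of 0.0837 for KIAA0391, the lowest of the list.

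In the copying of mitochondrial DNA 4 of 12 genes were above and 7 below with both shRNAs. POLG, the catalytic subunit of the mitochondrial DNA polymerase, was at 22.5, 9.25 and 9.94 FPKM, a log2 difference of -1.19 (limma SE 0.11, Benjamini-Hochberg adjusted p of 0.0790). Both shRNA values were below the control value, and the gene overlaps FANCI. The helicase C10orf2, also called TWNK, was at 8.88, 11.2 and 10.7 FPKM and the single-strand binding protein SSBP1 at 131, 165 and 156. The nuclease DNA2 was at 12.5, 6.00 and 7.61 FPKM, the ligase LIG3 at 28.3, 19.6 and 24.3, and the topoisomerase TOP3A at 23.2, 18.6 and 19.2.

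Among 10 genes of mitochondrial nucleotide supply 3 were above and 4 below with both shRNAs, SUCLA2 being at 32.2, 25.2 and 24.7 FPKM, MPV17 at 18.7, 14.8 and 17.9, SAMHD1 at 11.2, 8.92 and 9.95 and TYMP at 3.16, 3.96 and 3.67. Of 9 tested regulators of mitochondrial biogenesis 5 were above and 4 below. NRF1, a transcription factor of nuclear genes for respiration, was at 6.33, 4.09 and 4.603 FPKM and YY1 at 75.8, 58.4 and 66.3. ESRRA was at 22.6, 29.3 and 25.0 FPKM and the coactivator PPRC1 at 5.70, 7.73 and 6.76. PPARGC1A, a coactivator of the same programme, stayed under the limit for testing at 0.302, 0.756 and 0.802 FPKM.

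Of 22 tested aminoacyl-tRNA synthetase and amidotransferase genes, which charge the mitochondrial tRNAs, 13 were above and 5 below with both shRNAs. FARS2 was at 16.04, 19.0 and 21.9 FPKM, MARS2 at 3.80, 5.30 and 4.23, HARS2 at 43.2, 33.6 and 34.4 and WARS2 at 5.33, 4.41 and 4.003. Of 16 tRNA modification genes 7 were above and 6 below. QTRT1, of queuosine synthesis in tRNA, was at 7.14, 13.3 and 11.0 FPKM and the methyltransferase TRMT61B at 7.49, 11.9 and 11.9. TRMU was at 10.7, 7.30 and 9.24 FPKM and MTO1 at 21.2, 16.4 and 17.3.

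Of 18 genes of rRNA modification and ribosome assembly 8 were above and 9 below with both shRNAs. YBEY, an endoribonuclease needed for the small mitochondrial ribosomal subunit, was at 7.93, 22.6 and 19.5 FPKM, a log2 difference of 1.35 (limma SE 0.13, Benjamini-Hochberg adjusted p of 0.0813). It was the largest difference in the 8 lists, with both shRNA values above the control value. RPUSD4, a pseudouridine synthase of the large rRNA, was at 22.3, 28.99 and 27.6 FPKM, the GTPase MTG1 at 8.97, 11.2 and 11.3, and METTL17 at 15.4, 11.6 and 11.6.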

How the data were processed

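The authors deposited FPKM for each gene and library, each with a lower and an upper bound and a status word, per the file headers. The submitters' processing notes name STAR, RSEM and GRCh38 but no version and no role. The library kit, the strand setting, the handling of reads with several matches and the software behind FPKM and bounds: not given in the sources used here. Read depth is not given either, so no counting interval or floor was computed. Status was read as a deposited word.

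Types, positions and sequences came from GENCODE release 29. Differences were computed on log2(FPKM + 0.5), which understates folds of low genes, for genes with a mean of at least 1 FPKM. Limma 3.58.1 in R 4.3.3 (lmFit, eBayes with trend) compared 2 knockdown libraries with 1 control, with 1 residual degree of freedom and Benjamini-Hochberg adjustment over all genes. The lone control library is assumed to vary like the knockdown libraries. A run of the fit on simulated data made the same assumption, so it cannot test it. Alternatives were another pseudocount, filter, scaling, eBayes option or gene set, and each shRNA library alone. Fold values printed as ratios have no pseudocount. ERINA was found as LINC00992 through a RefSeq synonym. Every MT- row is described; nuclear genes named are a fixed set of key genes plus up to 4 per list with the largest difference on 1 side of the control with both shRNAs. The members and lists were chosen with earlier results of these data known. Tables were made in Python 3.11.15 (pandas 2.3.3, numpy 2.4.6) and plots with matplotlib 3.10.9.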

Additional observations from a re-analysis of the deposited data

Results flagged for a closer look

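With the 2 shRNAs 4 mitochondrial mRNAs lay on opposite sides of the control, as did 14.6% of all tested genes. Whether the hairpins differ in these mRNAs was not tested, and with shRNA1 all 4 were close to the control. On the log2 scale MT-ND1 stood at 0.0242 with shRNA1 and -0.22 with shRNA2, MT-ND2 at 0.0129 and -0.11, MT-ND5 at 0.0296 and -0.0375, and MT-CYB at 0.0052 and -0.11. At equal total FPKM per library all 4 lay below the control with both shRNAs, as did 49.7% of all tested genes. That scaling put the median log2 difference of all genes at -0.12 with shRNA1 and -0.03 with shRNA2.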

How the results depend on the processing

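No mitochondrial transcript changed the side of the control on which its mean lay under any limma setting tried, and 3 passed under 1 setting. With protein-coding and MT- genes tested alone, limma called 3 members higher (Benjamini-Hochberg), MT-CO2 (adjusted p of 0.0387, range over the alternatives 0.0387 to 0.251), MT-RNR2 (0.0397, range 0.0397 to 0.353) and MT-ATP8 (0.0370, range 0.0370 to 0.297); 7.12% of all genes in that fit were called higher and 11.2% lower. The cause was not tested. Over all genes, calls of 11 higher and 35 lower became 0 and 0 with no filter on low values, 65 and 111 at equal total FPKM per library, counted with or without the MT- genes, 6 higher without the eBayes trend, 430 and 595 with its robust option and 822 and 1297 with protein-coding and MT- genes alone. Calls in the 8 nuclear lists, an alternative chosen after seeing the data, went from 0 to 1 higher and 1 lower with either scaling. They were 3 and 2 with the robust option, where 3.28% and 4.54% of all genes were called. With protein-coding and MT- genes alone they were 6 and 6, where 7.12% and 11.2% of all genes were called. The 6 higher ones were YBEY, MTERF2, TRMT61B, QTRT1, ANGEL2 and REXO2, and the 6 lower ones POLG, DNA2, KIAA0391, TBRG4, HARS2 and SUCLA2.

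The mRNA median of -0.0039 became -0.0796 at equal total FPKM per library and -0.0789 where that total left out the MT- genes. With the same scalings the median of all tested genes went from 0.0005 to -0.0727 and -0.0720. Over the 8 mRNAs alone in their deposited locus, a set chosen after seeing the data, the mRNA median was 0.12. The ratio of knockdown to control share, 1.14, was 1.16 over protein-coding and MT- genes. Leaving out 1 shRNA library leaves no residual degree of freedom, so it gave values with no test; over all tested genes, bounds clear of the control were found in 40 genes and in 121 without shRNA2. No paired analysis was possible because the control has 1 library.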
